A study of Mus musculus with 4 samples.

Results

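A set of 9 genes that mark basal cells of stratified epithelia and are not keratins were followed in the developing mouse ureter: Dapl1, Trim29, Fat2, Bcam, Ngfr, Cd44, Sox2, Dlk2 and Ripk4. Every probe whose gene name on the array is one of these symbols was taken, which gave 14 of the 39429 gene probes and 9 of the 29987 gene names. The symbols were picked with their ratios in these samples already known. Their difference between the genotypes is therefore described here without a test of its own. The tissue was the ureter of NMRI mouse embryos at stage E15.5. Ureters of cKO embryos carried the cre transgene as Pax2-cre/+ and a floxed ΔN allele of Trp63 on both chromosomes, written Trp63(dN-flox/dN-flox). Control ureters carried the floxed allele on at least 1 chromosome (written Trp63(dN-flox/?)), with the other allele not specified and no cre listed. An effect of the cre transgene and of the loss of ΔNp63 cannot be told apart in this design. Each of the 4 replicates is 1 array on which a cKO RNA and a control RNA of the same sex were hybridised together, female in replicates 1 and 2 and male in replicates 3 and 4. The red dye marked cKO RNA in replicates 1 and 3 and control RNA in replicates 2 and 4. The labels do not say whether a sample came from 1 embryo or from a pool.

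The ureter is lined by the urothelium, a layered epithelium in which basal cells rest on the basement membrane beneath intermediate and superficial cells. ΔNp63 is the form of the transcription factor p63 that lacks the full amino-terminal activation domain, and it is known as a master regulator of the basal state in skin and other stratified epithelia. Besides keratins, basal cells are recognised by adhesion molecules that hold them to their matrix and to each other, by growth factor receptors, and by kinases and adaptor proteins that act on their differentiation. Several of them are also made outside the epithelium, since Ngfr and Sox2 are used in neural and glial cells and Cd44 and Bcam in many other cell types.

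Two-colour Agilent arrays measured the RNA, and a level is given here as a normalised log2 intensity, which compares samples for 1 probe and not one probe with another. Ratios are log2 of cKO over control on the same array, so that a negative value means less signal in cKO. The array medians of the raw signal lay between 519 and 617 in red and between 382 and 416 in green, and no spot was saturated. Trp63 itself was 2.59-fold lower in cKO (limma, adjusted p = 0.00323), with array ratios of -1.39, -1.18, -1.30 and -1.62 and an average of -1.37 ± 0.18 (SD, n = 4). The mean over its kept probes was -0.87. The place of its probe relative to the floxed exons was not analysed here. The arrays correlated unevenly over all genes tested, with Pearson's r between -0.06 for replicates 2 and 4 and 0.62 for replicates 2 and 3. Of the 20 general epithelial markers, 1 was called higher and none lower (limma; 5 lower and 3 higher at unadjusted p under 0.05), and their median ratio was -0.10. Their summed log2 level was 19.23 to 19.32 in cKO RNA and 19.06 to 19.20 in control RNA. This sum gives most weight to the brightest genes, Krt8 and Krt18, whose mean ratios were 0.37 and 0.50, and so differs in sign from the median. The one called, Krt18, was not called from Agilent's processed signals, with median centring, without the dim filter, or without replicate 1 or replicate 3 (limma, adjusted p between 0.0554 and 0.177). Without replicate 2, 3 of the list were called lower and 4 higher, without replicate 4, 3 lower and 2 higher, and without replicate 1 or 3, 1 lower and none higher. In whole ureters, fewer cells of a type and less RNA per cell cannot be told apart.

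Dapl1 had the lowest ratio of the 9 genes. It encodes a small protein related to the death-associated protein Dap and was described in early epithelial differentiation. Its only probe lies on chromosome 2 at chr2:59342824-59342883 (mm9, plus strand). The first bases of this probe, and of the probes for Trim29 and Fat2, are shown because these 3 genes carry the lowest ratios.
Dapl1: tctggagaaggctgctccaatgaagagggc
Trim29: tcacatgtcactgggctttgagagagccaa
Fat2: catgtgtgactgtgggtgtgactgattgca
The Dapl1 level was 7.52, 7.77, 7.92 and 7.79 in cKO RNA of replicates 1 to 4, against 9.32, 10.04, 10.28 and 9.86 in control RNA. Every cKO value lay below every control value. The ratios were -1.80, -2.27, -2.36 and -2.06, which average -2.12 ± 0.25 (SD, n = 4), a level 4.36-fold lower in cKO. Among the 21501 genes tested, 3 had a lower mean ratio. The probe stayed above background in cKO RNA on all arrays, at 2.96 to 6.08 times the local background. The size of the ratio moved with the processing, to -2.60 in the deposited table.

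Trim29 encodes a tripartite motif protein found in basal layers of stratified epithelia. Its probe lies at chr9:43144032-43144092 (mm9, plus strand). Its level was 9.68, 9.75, 9.76 and 9.65 in cKO RNA, against 11.58, 11.51, 11.81 and 11.48 in control RNA. The 4 cKO values differed from each other by less than the 4 control values did, and the groups lay far apart. The ratios of -1.90, -1.76, -2.04 and -1.82 average -1.88 ± 0.12 (SD, n = 4), a level 3.69-fold lower in cKO. Trim29 and Dapl1 overlapped in their ratios, with Dapl1 lower on 3 of 4 arrays by a mean of -0.24 ± 0.25.

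**Figure D1:**
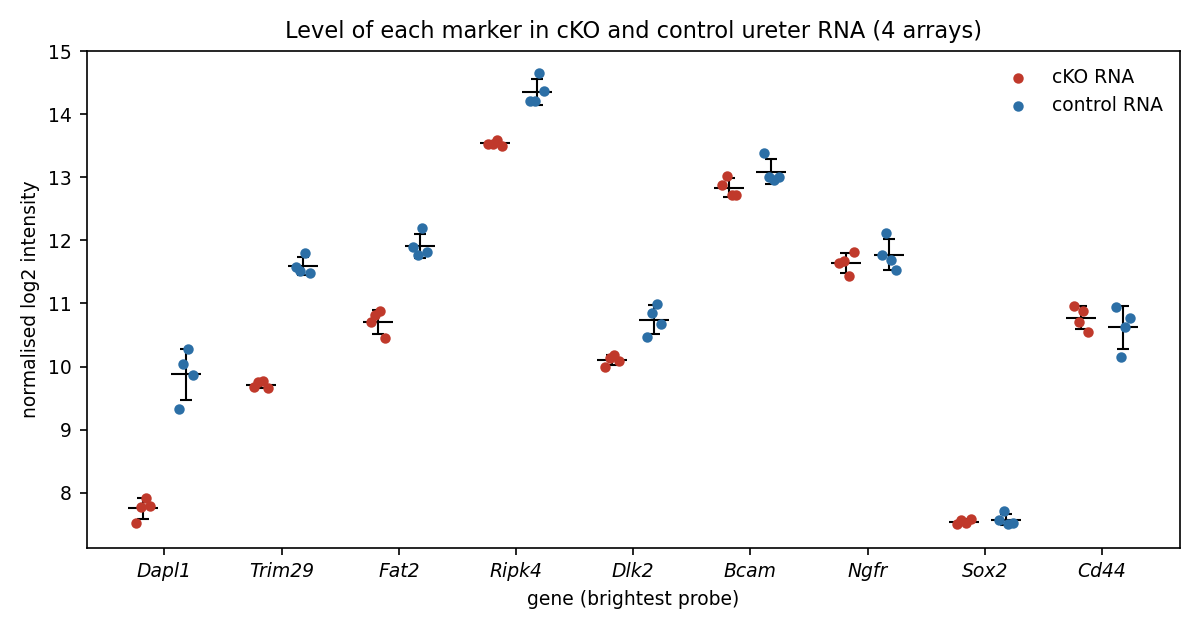
Normalised log2 intensity (y axis) of the brightest probe of each of the 9 markers in cKO RNA (red, left of each pair) and control RNA (blue, right); points are the 4 replicates, and black marks are the mean and SD. The cKO points lie wholly below the control points for Dapl1, Trim29, Fat2, Ripk4 and Dlk2, and the groups overlap for Bcam, Ngfr, Sox2 and Cd44; heights of different genes are not comparable, since each has its own probe.

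Fat2, Bcam and Cd44 act in adhesion to other cells or to the matrix. Fat2, an atypical cadherin of epithelial cells, has its probe at chr11:55064146-55064205 (mm9, minus strand). Its level was 10.71, 10.81, 10.88 and 10.45 in cKO RNA, against 11.89, 11.76, 12.20 and 11.82 in control RNA, with no overlap. The ratios were -1.18, -0.95, -1.32 and -1.37, which average -1.20 ± 0.19 (SD, n = 4), a level 2.31-fold lower in cKO. Fat2 and Trim29 are the only neighbours in the order of the ratios whose ranges over arrays did not overlap, with Trim29 lower by a mean of -0.68 ± 0.16 on all 4 arrays.

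Bcam, the Lutheran glycoprotein, is a receptor for the laminin chain Lama5. Its probe maps between 20341911 and 20342058 on the minus strand of chromosome 7 (mm9). The level was 12.89, 13.02, 12.72 and 12.71 in cKO RNA, against 13.39, 13.01, 12.96 and 13.00 in control RNA. The groups overlapped, and replicate 2 was as high in cKO as in control. The ratios were -0.51, 0.01, -0.24 and -0.29, which average -0.26 ± 0.21 (SD, n = 4), a level 1.19-fold lower in cKO. The low ratio of replicate 1 goes with a control level that stood above the other 3. Lama5 itself had a mean ratio of 0.14 ± 0.24.

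Cd44, the cell surface receptor for hyaluronan, is made in several forms by alternative splicing, and the array holds 4 probes for it. They lie on the minus strand of chromosome 2 (mm9), their starts spread over 26.6 kb, in the order given here by position. They are shown because they did not all give the same ratio.
Cd44 A_55_P2064043: tcagaggcagctggcatcctttgttttgtt
Cd44 A_55_P2166501: gacgagacccggaatctgcagagtgtggac
Cd44 A_55_P2166486: tacattacatggagagccggaagaagacga
Cd44 A_55_P2166488: acagatttcttcgacccaatctcacatcca
The brightest, A_55_P2166501 (102654278 to 102654337), had levels of 10.96, 10.71, 10.88 and 10.55 in cKO RNA, against 10.94, 10.15, 10.63 and 10.77 in control RNA. The groups overlapped, and the ratios of 0.02, 0.56, 0.25 and -0.22 averaged 0.15 ± 0.33 (SD, n = 4). A_55_P2064043 (102651398 to 102651457) had ratios of 0.10, 0.03, 0.05 and -0.14, with a mean of 0.01 ± 0.11. A_55_P2166488 (102677971 to 102678030) had ratios of -0.13, 0.36, 0.16 and -0.38.

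The remaining Cd44 probe, A_55_P2166486 (102672645 to 102672704), was positive on all 4 arrays. Its level was 7.39, 7.01, 7.25 and 7.26 in cKO RNA, against 6.60 to 7.09 in control RNA, and the groups overlapped slightly. The ratios of 0.31, 0.41, 0.47 and 0.26 averaged 0.36 ± 0.10 (SD, n = 4), or 1.28-fold higher in cKO. This probe was dim, at 1.37 to 3.73 times the local background, and in control RNA it was well above background on 3 of 4 arrays, so it passed the filter through the cKO RNA. The ratio of A_55_P2064043 minus that of this probe was -0.35 ± 0.10. Of the 4 probes, A_55_P2166501 and A_55_P2166488 moved together from array to array, with a difference of 0.15 ± 0.05.

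The growth factor receptor Ngfr, which binds all neurotrophins, has its probe at chr11:95430211-95430270 (mm9, minus strand). Its level was 11.64, 11.68, 11.43 and 11.82 in cKO RNA, against 11.77, 12.12, 11.69 and 11.52 in control RNA. The groups overlapped and the sign was not the same on all arrays, with ratios of -0.13, -0.44, -0.26 and 0.30. The mean was -0.13 ± 0.31 (SD, n = 4). Ngfr also marks Schwann and other neural crest cells. None of the 18 neuron and glia markers was called (limma; 1 lower at unadjusted p under 0.05, and 7 called lower without replicate 4). They had median ratios of -0.16, -0.39, -0.01 and 0.01 in replicates 1 to 4, their summed log2 level was 16.30 to 16.48 in cKO RNA and 16.30 to 16.67 in control RNA, and the glial factor Sox10 had ratios of -0.21, -0.59, -0.20 and 0.15. Replicate 2 was lowest and replicate 4 highest for Ngfr and Sox10 alike. Those 2 arrays also ran against each other over all genes tested (Spearman's r = -0.32), so this order is not particular to Ngfr and Sox10. The part of neurons and glia in the Ngfr values was not tested.

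Dlk2, a membrane protein with EGF-like repeats related to the Notch ligands, has 2 probes on the plus strand of chromosome 17 (mm9) whose starts are 411 bases apart. Both are shown because they are separate readings of the gene.
Dlk2 A_55_P2107901: aagacttgtgaacttgtcctacctgctcca
Dlk2 A_51_P254299: ctgtgatgggaggagcctttctagctacct
The brighter, A_51_P254299 (46440042 to 46440101), had levels of 10.00, 10.13, 10.19 and 10.09 in cKO RNA, against 10.46, 10.84, 11.00 and 10.67 in control RNA. The groups did not overlap. The ratios of -0.46, -0.71, -0.81 and -0.59 averaged -0.64 ± 0.15 (SD, n = 4), or 1.56-fold lower in cKO. The other probe, A_55_P2107901 (46439631 to 46439690), had ratios of -0.52, -0.62, -0.81 and -0.33, a mean of -0.57 ± 0.20, and differed from the first by 0.07 ± 0.14. Replicate 3 had the lowest ratio with both.

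Ripk4, a kinase that drives keratinocyte differentiation, has 2 probes at nearly the same place on the minus strand of chromosome 16 (mm9), at 97963540 to 97963599 and 97963549 to 97963608. They share 51 of their 60 bases and so are not independent readings. Both are shown, with the shared bases within the first 30 in capitals.
Ripk4 A_55_P2035400: cttgtgtaaAACACGGGGACCATAGGAGAT
Ripk4 A_55_P2136289: AACACGGGGACCATAGGAGATctgttttat
With the brighter probe, A_55_P2136289, the level was 13.54, 13.53, 13.59 and 13.50 in cKO RNA, against 14.21, 14.21, 14.65 and 14.36 in control RNA. The cKO values were nearly equal and all lay below the control values. The ratios were -0.68, -0.68, -1.06 and -0.86, which average -0.82 ± 0.18 (SD, n = 4), a level 1.77-fold lower in cKO. The overlapping probe gave 1.76-fold, and the largest difference between the 2 probes on any array was 0.04.

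Sox2, a transcription factor of stem and progenitor cells and the only transcription factor among the 9, has its probe at chr3:34550773-34550832 (mm9, plus strand). Its level was 7.51, 7.57, 7.51 and 7.58 in cKO RNA, against 7.57, 7.70, 7.50 and 7.52 in control RNA. These are low levels, at 2.72 to 4.89 times the local background, and the groups overlapped. The ratios of -0.06, -0.14, 0.01 and 0.06 averaged -0.03 ± 0.09 (SD, n = 4). No difference between cKO and control RNA was detectable for Sox2 with 4 arrays.

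**Figure D2:**
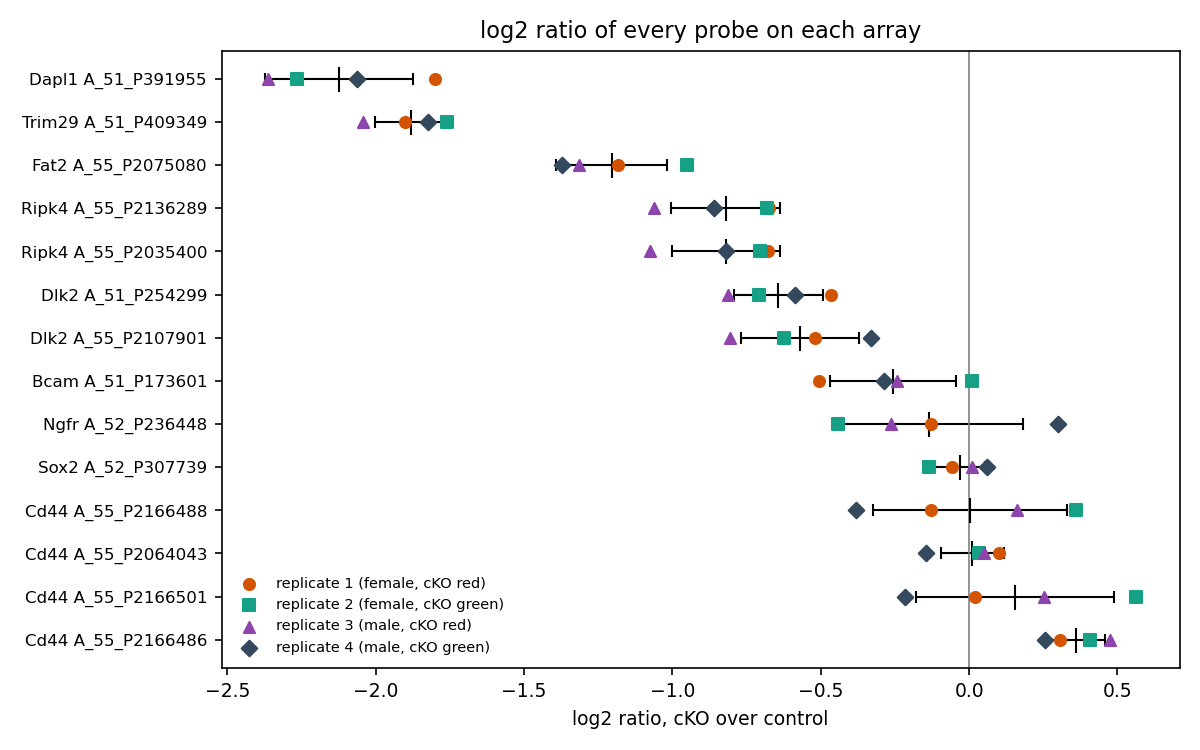
log2 ratio of cKO over control (x axis) for all 14 probes of the 9 markers (y axis); each symbol is 1 replicate, and the black mark is the mean with its SD. All symbols of the Dapl1, Trim29, Fat2, Ripk4 and Dlk2 probes lie below 0, the Cd44 probe A_55_P2166486 lies above 0 on all 4 arrays, and the others straddle 0.

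Of the 9 genes, 5 were called lower in the fit over all genes (limma, adjusted p under 0.05): Dapl1, Trim29, Fat2, Ripk4 and Dlk2. None was called higher. Over all 21501 genes tested, 1.24% were called, 0.712% lower and 0.526% higher, and the comparison with these shares is a description, since the 9 were chosen on this contrast. All 14 probes passed the filter on dim probes, and 6 of them were called lower, against 0.58% of all kept probes, and none higher, against 0.433%. The levels of the 2 genotypes did not overlap, with cKO lower, for the same 5 genes, against 3.33% of all genes, and with cKO higher for none, against 3.05%. Ratios below 0 on all 4 arrays were found for these 5 of the 9, against 7.66% of all genes. Without the filter on dim probes 3 of the 9 were called lower, Dapl1, Trim29 and Fat2. Without replicate 3 Dlk2 was not called, without replicate 4 Ngfr was called lower and Cd44 higher as well, and in the authors' deposited table, fitted the same way, none was called. With genes holding a deposited value of exactly 0 left out, an alternative added after seeing the data, Dapl1, Trim29, Fat2, Ripk4 and Dlk2 were called lower. The median ratio was -0.64 over the 9 genes and -0.00024 over all genes. Of the 5 genes called, Dlk2 had the ratio nearest to 0, and it lay below that of Bcam, the next in order and not called, by a mean of -0.39 ± 0.33, with overlapping ranges.

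The levels of 4 of the 5 genes called varied less between cKO samples than between control samples, and so did those of the genes not called. The SD of the 4 Dapl1 levels was 0.17 in cKO RNA and 0.41 in control RNA, and that of Trim29 was 0.05 in cKO RNA and 0.15 in control RNA. Ripk4 had an SD of 0.03 in cKO RNA and 0.21 in control RNA, and Dlk2 of 0.08 in cKO RNA and 0.23 in control RNA. Fat2 had an SD of 0.19 in both. Among the genes not called, the SD in cKO and in control RNA was 0.15 and 0.20 for Bcam and 0.16 and 0.25 for Ngfr. It was 0.04 and 0.09 for Sox2, and 0.18 and 0.34 for the brightest Cd44 probe. The smaller spread in cKO RNA is thus not particular to the genes called, and its share over all genes was not computed. Replicate 3 held the highest control level of each of the 5 genes called. The difference in spread was not tested. The log2 ratios of repeated spots of 1 probe on 1 array had an SD of 0.0077 to 0.134. This is a spread of ratios and cannot be set against the spread of levels.

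Measures that had no part in the choice of the genes were tested. The dye coefficient of the fit, which measures a difference between red and green for the same RNA, passed the threshold for none of the 9 genes, and for 0% of all genes after adjustment (limma; 2% at unadjusted p under 0.05). Its unadjusted p lay between 0.238 for Bcam and 0.955 for Dlk2. Dapl1 averaged -2.08 on the arrays with cKO RNA in red and -2.17 on those with cKO RNA in green, and Trim29 averaged -1.97 with cKO RNA in red and -1.79 with cKO RNA in green. The difference of the cKO effect between male and female embryos passed for none of the 9 and for 0.0698% of all genes (limma, adjusted p; 0.939% at unadjusted p under 0.05). The unadjusted p lay between 0.265 for Ngfr and 0.953 for Bcam. Dapl1 averaged -2.21 in male and -2.03 in female embryos, Trim29 -1.93 in male and -1.83 in female embryos, and Fat2 -1.34 in male and -1.07 in female embryos. Over the 9 genes the male minus female difference ran from -0.28 for Ripk4 to 0.30 for Ngfr, with 2 arrays of each sex. The sex fit has a further coefficient on the same arrays, so its spread leans on that of all genes. Each of its p-values therefore mostly restates the size of the difference, and not passing does not show that the sexes are alike.

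The genes most like Dapl1, Trim29 and Fat2, the 3 markers with mean ratios beyond 1 in size, were sought by the root mean square difference of the 4 log2 ratios. Nearest to Dapl1 were the transcript 4631405K08Rik, at a distance of 0.170 and a mean ratio of -2.20 ± 0.28 (SD, n = 4), then Trim29 itself at 0.327 and the desmosomal plakophilin Pkp1 at 0.346. Nearest to Trim29 was Lypd3, a surface protein of the Ly6 family, at 0.0625, with ratios of -1.87, -1.68, -2.12 and -1.77. The Wnt ligand Wnt10a followed at 0.150 and the epidermal transcription factor Zfp750 at 0.174. Nearest to Fat2 were the growth factor Pdgfa at 0.0827, the Notch ligand Jag2 at 0.0860 and the basal keratin Krt15 at 0.117. Beside Trim29, whose call is given above, each of these was called lower in cKO (limma, adjusted p between 0.000855 for Pkp1 and 0.0121 for Krt15). They were picked for ratios close to those of these markers, so their calls follow from that choice and add nothing to it. Krt15 was not called without the filter on dim probes (limma, adjusted p = 0.0935). A small distance says only that the ratios are alike on the same 4 arrays.

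**Figure D3:**
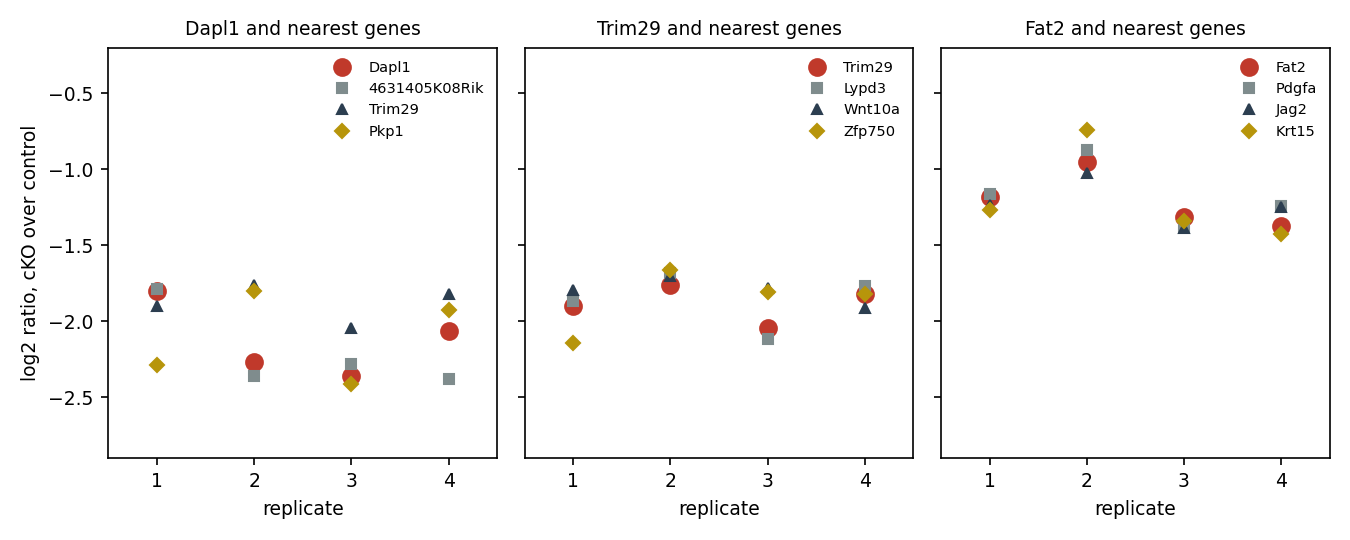
log2 ratio of cKO over control (y axis) in replicates 1 to 4 (x axis) for Dapl1 (left), Trim29 (middle) and Fat2 (right), shown as large red circles, and for the 3 genes nearest to each, shown as smaller symbols. Lypd3 lies within 0.0625 of Trim29 and Pdgfa within 0.0827 of Fat2 as root mean square differences, while 4631405K08Rik departs from its other replicates in replicate 1, at -1.79.

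The promoters of the 9 genes were read for the letters of p63 response elements. RefSeq's table (GRCm38.p6) holds 8 promoters for 7 of the genes, among them 2 for Dlk2. The loose spacing of a pair of p53-family half-sites, CNNGNNNNNNCNNG, is its own reverse complement and occurred in the 250 bases before the start in 6 of the 8, against 63.5% of the 32851 promoters in the table. The stricter pair CATGNNNNNNCATG, also its own reverse complement, occurred in none, against 0.49% of all. TATAAA, read on both strands, occurred in 1, that of Dapl1, against 12.4% of all. The promoters of Dapl1, with 2 overlapping matches to the loose spacing in capitals, the first 153 bases before the start, and of Fat2, with no match, are shown because these are the promoters of the markers with the lowest ratios that the table holds. That of Dapl1 is chr2:59484403-59484652 on the plus strand and that of Fat2 is chr11:55312258-55312507 on the minus strand (GRCm38.p6).
Dapl1 promoter: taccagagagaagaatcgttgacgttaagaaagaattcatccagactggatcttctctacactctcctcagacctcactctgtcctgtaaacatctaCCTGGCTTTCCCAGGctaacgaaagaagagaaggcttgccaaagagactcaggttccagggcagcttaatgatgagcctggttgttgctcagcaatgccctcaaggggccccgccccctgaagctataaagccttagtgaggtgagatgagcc
Fat2 promoter: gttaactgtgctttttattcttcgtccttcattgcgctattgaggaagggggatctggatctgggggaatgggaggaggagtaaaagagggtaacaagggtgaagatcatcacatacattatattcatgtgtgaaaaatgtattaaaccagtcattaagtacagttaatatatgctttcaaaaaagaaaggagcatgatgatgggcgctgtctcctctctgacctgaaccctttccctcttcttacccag
The letters describe these windows and do not show binding.

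Genes that work with the markers, or are related to them, were set beside them. The calls below come from the fit to the scanner values, and in the deposited table, fitted the same way, no gene of these lists was called. With genes holding a deposited value of exactly 0 left out, an alternative added after seeing the data, calls were again made. They were 9 lower for the basal keratins and junction genes and 4 lower for the Ripk4 list. The closest relatives and the neurotrophin, Notch and Sox lists had 1 lower each. Of the superficial and luminal markers 2 were lower and 2 higher, and of the skeletal muscle genes 2 were lower. Of the general epithelial markers above, 1 was lower and 1 higher. For Ripk4, a list of its partners and of barrier genes held 12 tested genes, of which 4 were called lower and none higher, with a median ratio of -0.14. The 4 were Pkp1 (-2.11 ± 0.29), the cell cycle and barrier protein Sfn (-1.30 ± 0.20), the cross-linking enzyme Tgm1 (-0.95 ± 0.22) and the transcription factor Grhl3 (-0.68 ± 0.22; SD, n = 4 each). Without replicate 2, 6 were called lower, without replicate 4 there was 1 called higher, and Grhl3 was not called without the dim filter (limma, adjusted p = 0.171). Ankk1, the closest relative of Ripk4 in the list of relatives, had ratios of -1.07, -1.21, -1.23 and -1.29, a mean of -1.20 ± 0.09 (limma, adjusted p = 0.00220). In cKO RNA its probe was above background on 3 of 4 arrays, and the size of the ratio moved with the background correction, to -1.58 with an offset of 16 and -2.63 with Agilent's processed signals. None of the other 13 tested relatives was called. Ripk1 had a mean ratio of 0.15 ± 0.17, Fat4 of -0.10 ± 0.05 and Lyve1, also a hyaluronan receptor, of 0.20 ± 0.33.

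Among the neurotrophin and Notch genes, 1 ligand of each pathway was called lower. For Ngfr, 14 neurotrophin ligands and receptors were tested, of which 1 was called lower and none higher, with a median of -0.03. The one was the ligand Ntf5, with ratios of -1.11, -1.21, -1.46 and -1.02 and a mean of -1.20 ± 0.19 (SD, n = 4; limma, adjusted p = 0.00416). Its receptor Ntrk2 had a mean ratio of -0.24 ± 0.03 and did not pass (adjusted p = 0.347). For Dlk2, 1 of 16 Notch ligands, receptors and targets was called lower and none higher, with a median of -0.06. That gene was Jag2, with ratios of -1.24, -1.03, -1.39 and -1.25 and a mean of -1.22 ± 0.15 (adjusted p = 0.00258). The targets Nrarp and Hes1 had mean ratios of -0.51 ± 0.17 and -0.28 ± 0.12, the receptor Notch1 -0.36 ± 0.14, and none of these passed (limma, adjusted p between 0.0807 and 0.239). The count of Notch genes called lower was 4 without replicate 2, 5 without replicate 4 and 4 when the pairing on the array was ignored.

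For Sox2, 17 Sox genes were tested and 1 was called lower, with none higher and a median of -0.02. This was Sox15, with a mean ratio of -0.82 ± 0.14 (SD, n = 4; limma, adjusted p = 0.0127), above background in cKO RNA on 3 of 4 arrays, and -1.89 with Agilent's processed signals. Its call was lost when dim probes were not filtered (limma, adjusted p = 0.0637), and without replicate 4 there were 3 Sox genes called lower and 1 higher. For Bcam, none of 12 laminin chains and receptors passed (limma; 1 lower at unadjusted p under 0.05, Dag1 at -0.33 ± 0.18), with a median of 0.01. For Cd44, none of 14 ligands, partners and splicing regulators passed (1 lower at unadjusted p under 0.05, the hyaluronidase Hyal1 at -0.31 ± 0.08), with a median of -0.04. For Fat2, none of 14 Fat, Dachsous and planar polarity genes passed (limma; 3 lower at unadjusted p under 0.05), with a median of -0.09. Without replicate 2, 2 of the planar polarity genes and 1 of the Cd44 list were called lower, and without replicate 4 again 2 of the planar polarity genes.

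The classical basal markers, keratins and junction genes, held 18 tested genes, of which 9 were called lower and none higher, with a median of -0.59 beside -0.64 for the 9 genes described here. Krt5, the keratin that defines basal cells, had ratios of -2.16, -1.24, -2.07 and -2.01 and a mean of -1.87 ± 0.42, and Perp, a desmosomal protein, a mean of -2.12 ± 0.36 (SD, n = 4 each). Without the filter on dim probes 4 of the list were called, and Krt5 was not (limma, adjusted p = 0.0513). Superficial and luminal urothelial markers were called in both directions, 2 lower and 2 higher of 15, with a median of 0.12. The superficial keratin Krt20 had the largest increase of them at 1.92 ± 0.19. The others called were the uroplakin Upk2 at -0.54 ± 0.11, Grhl3, and the luminal keratin Krt18 at 0.50 ± 0.14 (SD, n = 4 each). Without the dim filter none was called lower and 1 higher, and with Agilent's processed signals or median centring 1 was called in each direction, with Upk2 and Krt18 lost. When the pairing on the array was ignored, 1 was lower and 3 higher. The count of higher superficial markers was 5 without replicate 2 and 6 without replicate 4, and without replicate 1 or 3 there was 1 in each direction. Of the markers of other cell types that can make Cd44, Bcam or Ngfr, none of 13 leukocyte, 12 mesenchyme, 10 smooth muscle and 10 endothelial genes was called (limma; 4 leukocyte genes were lower and 1 mesenchyme gene higher at unadjusted p under 0.05). The summed log2 level of the leukocyte genes was 15.77 to 15.84 in cKO RNA and 15.85 to 15.96 in control RNA, and that of the mesenchyme genes 19.73 to 20.06 in cKO RNA and 19.85 to 20.14 in control RNA. Among skeletal muscle genes, 2 of 12 were called lower and none higher, Myl1 at -0.78 ± 0.12 and Ckm at -0.71 ± 0.26 (SD, n = 4 each). Ckm was not called without the dim filter (limma, adjusted p = 0.0957), and Myl1 was not when the pairing was ignored (adjusted p = 0.163). Without replicate 4, 3 leukocyte and 5 skeletal muscle genes were called lower and 1 endothelial gene higher. Without replicate 1, 5 skeletal muscle genes were lower and 1 mesenchyme gene higher, and without replicate 2, 3 skeletal muscle genes and 1 mesenchyme gene were lower and 1 mesenchyme gene higher. The part of these cells in the marker values was not tested.

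**Figure D4:**
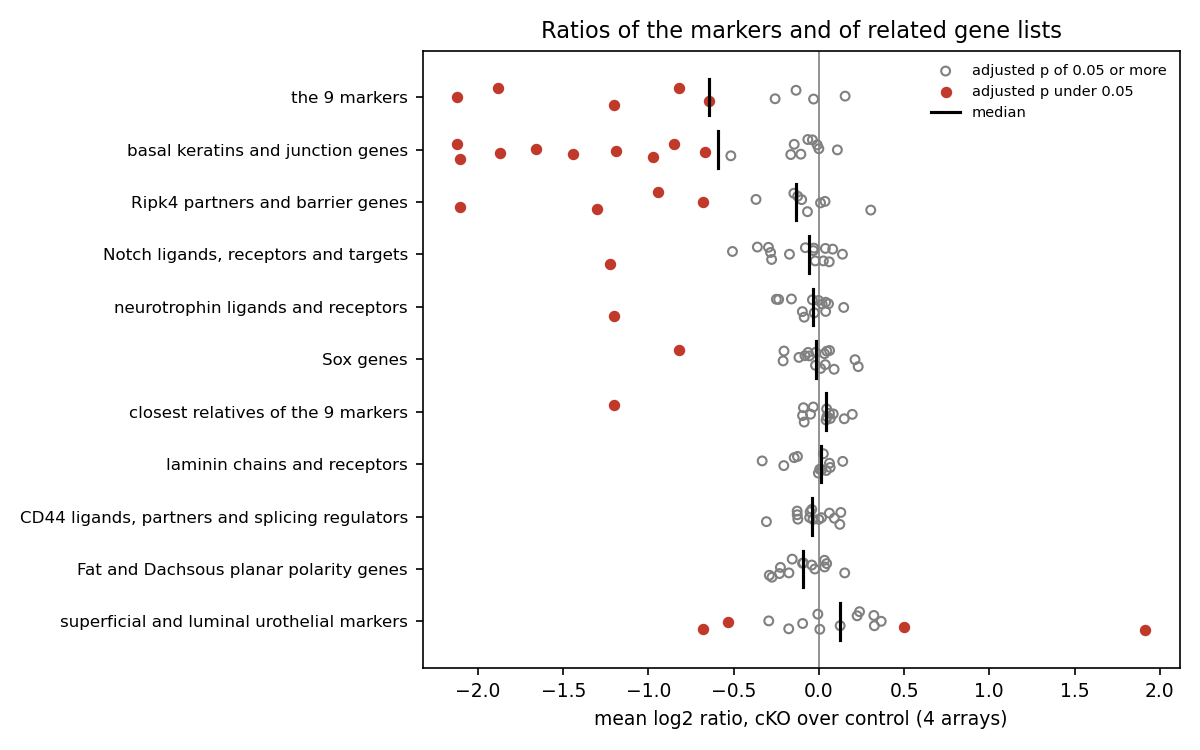
Mean log2 ratio of cKO over control over 4 arrays (x axis) for the 9 markers and for 10 lists of related genes (y axis); each point is a gene, filled red where the adjusted p of the fit over all genes is under 0.05, and the black bar is the median. The 9 markers and the basal keratins and junction genes have medians of -0.64 and -0.59, and the other lists have medians between -0.14 and 0.12.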

How the data were processed

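Per the file headers, the authors' scanner files came from Agilent Feature Extraction 10.7.3.1 and give, for both dyes, each spot's mean intensity and median local background. Deposited flags of other kinds mark spots above background or nonuniform. The authors' value table holds log2 ratios, used as an alternative. Probe coordinates are mm9, per the file headers. With limma 3.58.1 in R 4.3.3, background was corrected by normexp (offset 50), ratios were normalised by loess within arrays, nonuniform spots were dropped and spots of a probe averaged. Probes were kept if, in cKO RNA or in control RNA, a share of 0.5 or more of their spots exceeded background clearly on each of the 4 arrays, and the brightest kept probe stood for its gene (21501 genes). Levels were taken after Aquantile normalisation between arrays, which leaves the ratio on each array unchanged. The fit (lmFit, eBayes) had a cKO and a dye coefficient, and a sex-by-cKO coefficient for the sex test. Two-sided p-values were adjusted by Benjamini-Hochberg over all genes. The array is the pair, by the labels, since both RNAs of a replicate share it. All arrays lie on 1 slide. Replicate spread may be technical. The fit was tested on simulated ratios. Genes were named through RefSeq (GRCm38.p6).

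The members and lists were chosen with earlier results of these data known. Named are the 9 members, Trp63, the 4 genes with the lowest p in each list, and the 3 genes nearest to each member whose mean ratio is at least 1 in size. Sox10, Krt15 and further members of a list serve as examples. Results of some genes were left out and are not reported here. Alternatives were other signals, normalisations, offsets, filters and probe rules, no dye term, no pairing, the deposited table and leaving out each replicate.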

Additional observations from a re-analysis of the deposited data

Results flagged for a closer look

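Among 114 sets of 4 values, from the markers and the other named genes, 5 held an array that stood apart from the other 3 by Dixon's criterion, which chance gives in about 1 set in 20. The control level of Bcam in replicate 1 was 13.39, against 12.96 to 13.01 in the other replicates. The ratio of 4631405K08Rik, the transcript nearest to Dapl1, was -1.79 in replicate 1 and lower in the others. Krt5 and Perp both had their highest ratio in replicate 2, at -1.24 and -1.58. The muscle gene Tnnc2 had its lowest in replicate 3, at -0.97. Among 81 genes compared between the sexes, Sox2 had ratios above 0 in both male arrays and below 0 in both female arrays, with a male minus female difference of 0.13, and the limma test of that difference did not pass (adjusted p = 0.99997).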

How the results depend on the processing

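Of 117 alternative values of the 9 mean ratios, 114 moved by less than the spread between arrays, and the other 3 were all Dapl1, at -2.60 at the lowest. Many of these values could not have moved further. The dye term, the pairing and the dim filter leave the means of these genes unchanged. Leaving out 1 array always shifts the fitted mean by less than the spread between arrays. The count is therefore no measure of robustness. Without replicate 2 the small ratios of Ngfr, Cd44 and Sox2 changed sign, to 0.05, -0.04 and 0.02. The counts of calls moved more. Of the 266 genes called, 153 lower and 113 higher, there were 86 without the filter on dim probes (55 lower, 31 higher) and 460 without the dye term (266 lower, 194 higher). In the deposited table, where many values are exactly 0, 1 gene was called (0 lower, 1 higher; limma, 1782 genes at unadjusted p under 0.05), and 333 once genes with such a value were left out, an alternative added after seeing the data that called 5 markers. Leaving out 1 replicate gave 283 to 1608 genes, 155 to 855 lower and 128 to 753 higher, most without replicate 4 and next without replicate 2 (939). Each of these fits leaves 1 residual degree of freedom, so its spread leans on that of all genes. The markers called lower were 3 without the dim filter (Dapl1, Trim29 and Fat2), 0 in the deposited table and 4 to 6 with a replicate left out. Without replicate 3 Dlk2 was lost, and without replicate 4 Ngfr was added lower and Cd44 higher, so that 0 to 1 markers were called higher. The 290 probes called became 82 without the dim filter and 324 to 1975 with a replicate left out. With no replicate block, which ignores the pairing on the array, 387 genes were called, 239 of them also called with it. The sex test called 15 genes, 34 from Agilent's processed signals and 0 without the dim filter (limma, 178 at unadjusted p under 0.05). The dye test called 0 genes, and 529 with median centring in place of loess. Of the other named genes, Actg2, at 0.08, changed sign, with -0.041 without replicate 3 and 0.20 without replicate 1. The causes were not tested. The number of arrays limits precision, and Sox2 and the dimmest Cd44 probe lie near background. Dapl1 in cKO RNA is also dim, at 2.96 to 6.08 times the local background.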
